A study of Mus musculus with 9 samples.

Results

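The COP9 signalosome is the enzyme complex that takes NEDD8 off cullins, and its subunits were followed here in NIH 3T3 cells, a long-established fibroblast line from mouse embryos, after RNA interference against either of the E2 enzymes that put NEDD8 on. Its 9 members were the genes Gps1, Cops2, Cops3, Cops4, Cops5, Cops6, Cops7a, Cops7b and Cops8, taken by gene symbol. They had 17 of the 45101 probe sets on the array, and they were 9 of the 10613 genes tested. For each gene the main probe set was that whose log2 signal, averaged over the 9 arrays, was highest, and every other probe set of the gene is given beside it. All 3 groups received a retroviral vector, which coded for a short hairpin RNA (shRNA) that was a control in the first group and targeted Ube2m in the second and Ube2f in the other. RNA was taken 5 days after transduction, and each group held 3 biological replicates, per the labels. The growth label of all 9 samples, controls included, describes the cells as expressing Ube2f. The labels name 1 control hairpin, 1 Ube2m hairpin and 1 Ube2f hairpin, and do not say whether replicates were separate transductions. Where replicates share a transduction, the p-values measure only the spread between these samples.

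NEDD8 is a ubiquitin-like protein that, once joined to a cullin, switches on the ubiquitin ligase built on that cullin. The signalosome reverses this step: Cops5 is a zinc metalloprotease of the JAMM type that cuts NEDD8 from the cullin, and Cops6 is its catalytically inactive partner with the same MPN fold. The other subunits carry PCI domains and form the horseshoe-shaped frame that holds the pair. Cops7a and Cops7b are paralogs that take the same place in alternative forms of the complex. The architecture is shared with the lid of the proteasome and with the translation factor eIF3.

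On the main probe sets, Cops7a was the only subunit whose signal changed past the threshold against control. It fell there by a similar size with either hairpin. The second Cops7a probe set did not pass, at -0.23 with Ube2m (adjusted p = 0.46) and -0.15 with Ube2f (adjusted p = 0.671). The second Cops7b probe set passed only between the hairpins. A RefSeq promoter window of Cops7a and that of its paralog Cops7b are shown. They were picked because these 2 genes code for alternative subunits and their main probe sets gave unlike results. Both windows hold the 250 bases before the annotated start, 5′ to 3′ on the gene's strand, in build GRCm38.p6, chr6:124965513-124965762 on the minus strand for Cops7a and chr1:86582671-86582920 on the plus strand for Cops7b. Capitals mark CGGAAG, the core bound by ETS factors, in Cops7a, and TCCCAGCAT, from the site bound by ZNF143, in Cops7b. The annotated gene records of both extend beyond the upstream end of these windows, so part of a window may lie within an alternative transcript.
Cops7a: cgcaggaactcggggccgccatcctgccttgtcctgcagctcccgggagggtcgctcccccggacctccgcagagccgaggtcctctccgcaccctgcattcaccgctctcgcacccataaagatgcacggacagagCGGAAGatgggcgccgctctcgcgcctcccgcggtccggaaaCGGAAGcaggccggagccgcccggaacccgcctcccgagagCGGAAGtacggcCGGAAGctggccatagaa
Cops7b: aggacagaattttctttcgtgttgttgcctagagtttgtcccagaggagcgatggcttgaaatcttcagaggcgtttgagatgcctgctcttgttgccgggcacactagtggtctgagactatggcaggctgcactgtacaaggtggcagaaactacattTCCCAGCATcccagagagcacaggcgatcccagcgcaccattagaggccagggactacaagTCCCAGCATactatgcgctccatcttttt
CGGAAG stood 4 times in the Cops7a window, 113, 71, 30 and 18 bases before the start. Among 32851 RefSeq windows of this length, 13.6% held CGGAAG on either strand and 2.69% held it at least 2 times. TCCCAGCAT stood 2 times in the Cops7b window, 90 and 29 bases before the start, and 0.664% of all windows held it, 0.0183% at least 2 times. The windows differed in composition as well, with 69.6% G or C in the Cops7a window against 51.6% in that of Cops7b. Windows were found for 8 of the 9 subunit genes, 10 in all. CGGAAG was present in windows of 6 genes, 2 times in Cops3 and 1 time each in Cops2, Cops6, Cops8 and a window of Gps1. The window of a second annotated start of Cops7a, not shown, did not hold it. The E-box CACGTG, found in 6.02% of all windows, was present for Cops8 and for this second start. TGACNNNGC, the core of the antioxidant response element, found in 10.2%, was present only for this second start. These motifs were chosen after the sequences had been read and no matches overlapped. A match is a description of the sequence, not a measured binding site.

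On the series as a whole, the Ube2f signal was 132 ± 13.2 (SD, n = 3) with its own hairpin against 2539 ± 199 in controls, a difference of -4.11 on the log2 scale (adjusted p = 7.45e-10). Ube2m itself was not analysed here, so the Ube2m knockdown was not checked at the RNA level and that group is known by its label. Replicate 3 of each group had a higher median signal over all probe sets, 63.8 in the control, 72.9 in the Ube2m and 73.2 in the Ube2f group, than replicates 1 and 2, at 53.1 to 58.3. The ratio of the 3′ to the 5′ beta-actin probe set, a measure of RNA integrity, was 1.82 on control replicate 1 and 1.24 to 1.35 on the other arrays. All 8 fibroblast markers measured were above the filter on low signals. Of the markers of other cell types, 2 of 6 for macrophages (Csf1r, Cd14), 2 of 5 for epithelium (Epcam, Cdh1), 2 of 5 for skeletal muscle (Acta1, Des), 0 of 4 for endothelium and 0 of 3 for adipocytes were. Their summed signals were 733 to 757, 736 to 955 and 576 to 622 for macrophages, 302 to 396, 316 to 400 and 408 to 511 for epithelium, and 614 to 853, 1023 to 1213 and 609 to 707 for skeletal muscle in the control, Ube2m and Ube2f groups. For endothelium they were 68.6 to 88.6, 91.5 to 135 and 83.3 to 129, and for adipocytes 30.2 to 95.4, 25.4 to 74.6 and 10.4 to 59.8. The part of these cell type, RNA quality and array differences in the subunits' values was not tested beyond the alternatives given below. In bulk RNA, fewer cells of a type and less RNA per cell cannot be told apart.

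Values are linear array signals from the MAS5 algorithm, and differences are of log2(signal + 16) between group means, which understates the change of dim genes. A gene is said to have risen or fallen when its Benjamini-Hochberg p-value, taken across every gene tested, was under 0.05. The number of arrays limits the precision. Both comparisons with the control use the same 3 control arrays, so their values are given side by side and are not independent of each other. The signal of a probe set depends on its probes, so a difference in signal between 2 genes is not read as a difference in their RNA.

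**Figure D1:**
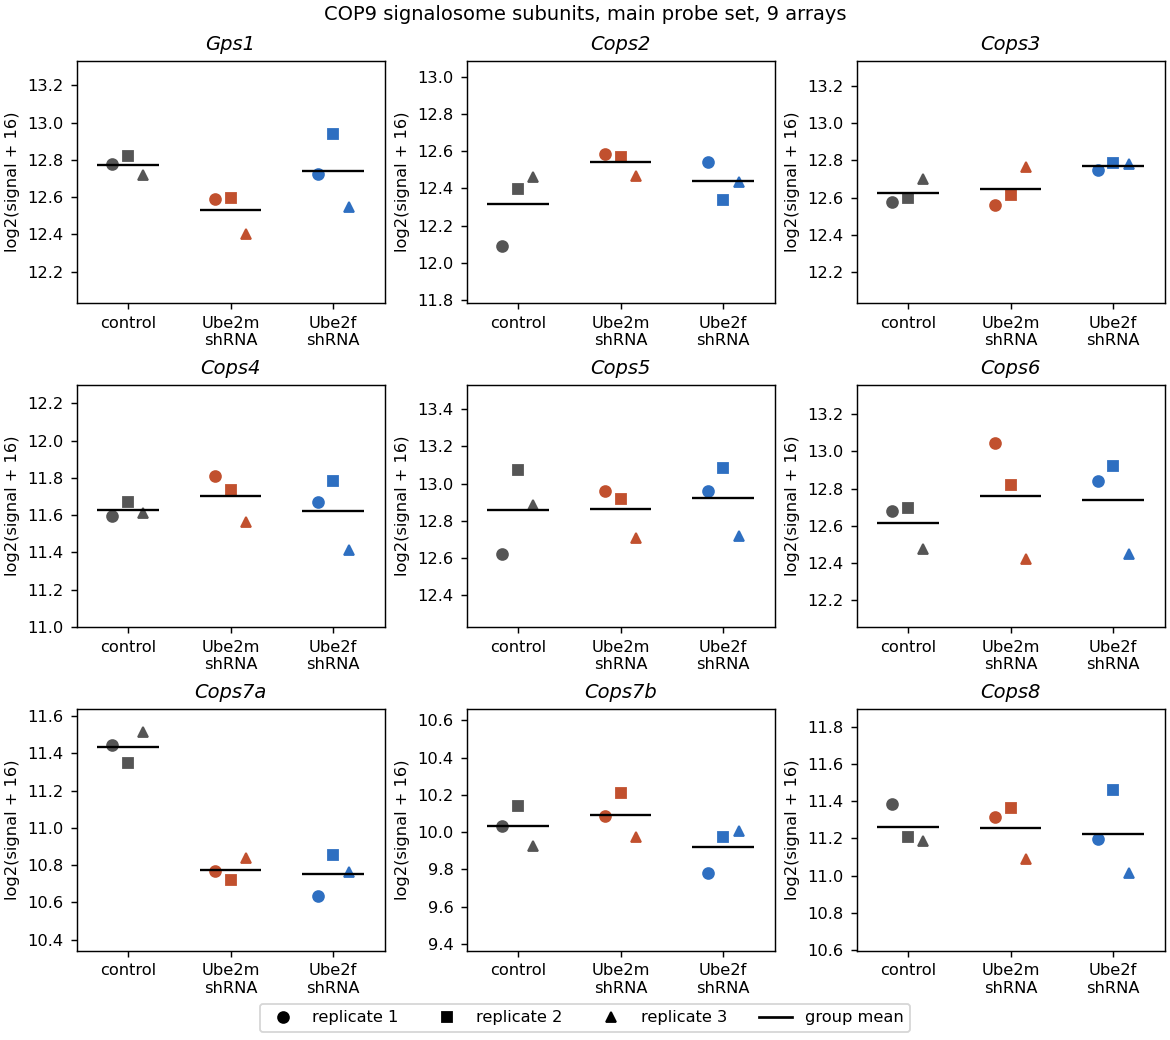
Signal of the main probe set of each subunit as log2(signal + 16), 1 panel per gene, every panel spanning the same height on the log2 axis; marks are single arrays by replicate number and lines are means of 3. The Cops7a arrays of both hairpin groups lie below all 3 control arrays, and in the other panels the groups overlap or lie close together.

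The catalytic pair came first. Cops5, the protease subunit, had signals of 6278.7, 8592.9 and 7554.4 on the control arrays, 7950.0, 7713.6 and 6678.3 with the Ube2m hairpin, and 7949.9, 8670.3 and 6711.3 with the Ube2f hairpin. The 3 groups overlapped throughout, and the lowest value of all was that of control replicate 1. The log2 difference from control was 0.00 (95% interval -0.29 to 0.29, adjusted p = 0.995) for Ube2m and 0.06 (-0.23 to 0.35, adjusted p = 0.856) for Ube2f. The only other Cops5 probe set was dim, with group means of 20.6, 34 and 37.6, below the filter of 53.8, and was not tested.

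Cops6, the inactive MPN partner of Cops5, had signals of 6542.0, 6604.5 and 5675.9 in controls. With the Ube2m hairpin they were 8441.8, 7208.3 and 5473.8, and with the Ube2f hairpin 7305.7, 7752.3 and 5572.0. The array of replicate 3 was the lowest of its group each time, and on replicates 1 and 2 both hairpin groups lay above the controls. Over all arrays the differences were 0.15 (-0.20 to 0.50, adjusted p = 0.634) for Ube2m and 0.12 (-0.23 to 0.47, adjusted p = 0.737) for Ube2f. A dimmer second probe set read 164.1, 194.0 and 152.0 in controls, 132.5, 121.7 and 164.6 with the Ube2m hairpin, and 196.2, 214.2 and 213.6 with the Ube2f hairpin. There the hairpin groups did not overlap, and the difference of Ube2m from Ube2f, -0.53 (SE 0.18), missed the threshold (adjusted p = 0.0933), while the main probe set gave 0.03 (-0.32 to 0.38).

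Gps1, the subunit also called Csn1, had the smallest adjusted p with the Ube2m hairpin of the PCI subunits other than Cops7a. Its signals were 7003.9, 7208.8 and 6729.2 in controls, 6142.7, 6170.9 and 5397.4 with the Ube2m hairpin, and 6755.3, 7839.4 and 5970.8 with the Ube2f hairpin. All 3 Ube2m arrays lay below all controls, and the Ube2f arrays spanned the range of the controls and beyond. The difference was -0.24 (-0.49 to 0.00, adjusted p = 0.203) for Ube2m and -0.03 (-0.28 to 0.21, adjusted p = 0.905) for Ube2f, and Ube2m against Ube2f gave -0.21 (-0.45 to 0.04, adjusted p = 0.249). After quantile normalization of the arrays, Gps1 passed the threshold in the first and the last of these comparisons, at -0.26 (adjusted p = 0.0471) and -0.24 (adjusted p = 0.0473). Gps1 had 1 probe set.

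Cops2, the subunit known as TRIP15 or Alien that meets the cullin's end, had signals of 4343.3, 5381.0 and 5617.1 in controls, 6114.9, 6058.8 and 5645.4 with the Ube2m hairpin, and 5950.3, 5157.1 and 5521.4 with the Ube2f hairpin. The Ube2m arrays all lay above the controls, though the lowest of them, 5645.4, was close to the highest control, 5617.1, and control replicate 1 was the lowest of all 9. The difference was 0.22 (-0.02 to 0.47, adjusted p = 0.25) for Ube2m and 0.12 (-0.12 to 0.37, adjusted p = 0.599) for Ube2f. Its second probe set gave 0.13 and 0.00, with groups that overlapped.

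Cops3 varied least. Its signals were 6083.5, 6194.7 and 6639.9 in controls, 6029.8, 6250.1 and 6929.9 with the Ube2m hairpin, and 6868.8, 7059.2 and 7011.7 with the Ube2f hairpin. The Ube2f arrays lay above the controls without overlap, yet the difference of 0.15 (-0.06 to 0.35) did not pass (adjusted p = 0.414), and Ube2m gave 0.02 (-0.18 to 0.22). Its 3 other probe sets were below the filter, with group means between 2.37 and 19.

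Cops4, a PCI subunit known to help sense the bound cullin, read 3084.6, 3250.5 and 3110.7 in controls, 3571.5, 3393.1 and 3014.6 with the Ube2m hairpin, and 3242.5, 3509.7 and 2710.9 with the Ube2f hairpin. Each hairpin group reached both above and below the controls, for differences of 0.08 (-0.17 to 0.32, adjusted p = 0.749) and -0.01 (-0.25 to 0.24, adjusted p = 0.988). Cops8, the smallest of the PCI subunits, read 2660.9, 2352.8 and 2312.0 in controls, 2526.8, 2621.4 and 2165.7 with the Ube2m hairpin, and 2327.1, 2797.2 and 2052.2 with the Ube2f hairpin. All 3 groups of Cops8 overlapped. Its differences were -0.00 (-0.28 to 0.27, adjusted p = 0.989) and -0.04 (-0.32 to 0.24, adjusted p = 0.909).

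Cops7a, one of the alternative PCI subunits of the frame, stood apart from these. Its signals were 2772.4, 2592.2 and 2904.4 in controls, 1730.1, 1672.6 and 1811.8 with the Ube2m hairpin, and 1574.5, 1831.5 and 1724.0 with the Ube2f hairpin. Every array of both hairpin groups lay below every control, and the hairpin groups overlapped each other. The means were 2756 ± 157 (SD, n = 3), 1738 ± 69.9 and 1710 ± 129. With the Ube2m hairpin Cops7a fell by 0.66 on the log2 scale (SE 0.1, 95% interval -0.88 to -0.44, adjusted p = 0.00188), a signal 36.7% lower on the scale of signal + 16. With the Ube2f hairpin it fell by 0.68 (SE 0.1, -0.90 to -0.47, adjusted p = 0.00218), or 37.8%. Between the hairpins the difference was 0.03 (-0.19 to 0.25, adjusted p = 0.908). In 681 of the 10613 genes the difference of Ube2m from control was at least as large as that of Cops7a, counting Cops7a itself, and in 454 that of Ube2f.

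Leaving out each of the 9 arrays in turn gave -0.70 to -0.62 for Ube2m (adjusted p from 0.00195 to 0.0165) and -0.74 to -0.63 for Ube2f (0.00285 to 0.0193). Replicates 1 and 2 alone gave -0.65 for either hairpin. The Cops7a call held under 22 of 22 alternatives for Ube2m and 21 of 22 for Ube2f, the exception being the mean over both of its probe sets, at -0.42 (adjusted p = 0.0647). That mean gave -0.44 for Ube2m (adjusted p = 0.0337). It was the only alternative that used the second probe set. The others refitted the main one and do not bear on whether the 2 probe sets agree.

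**Figure D2:**
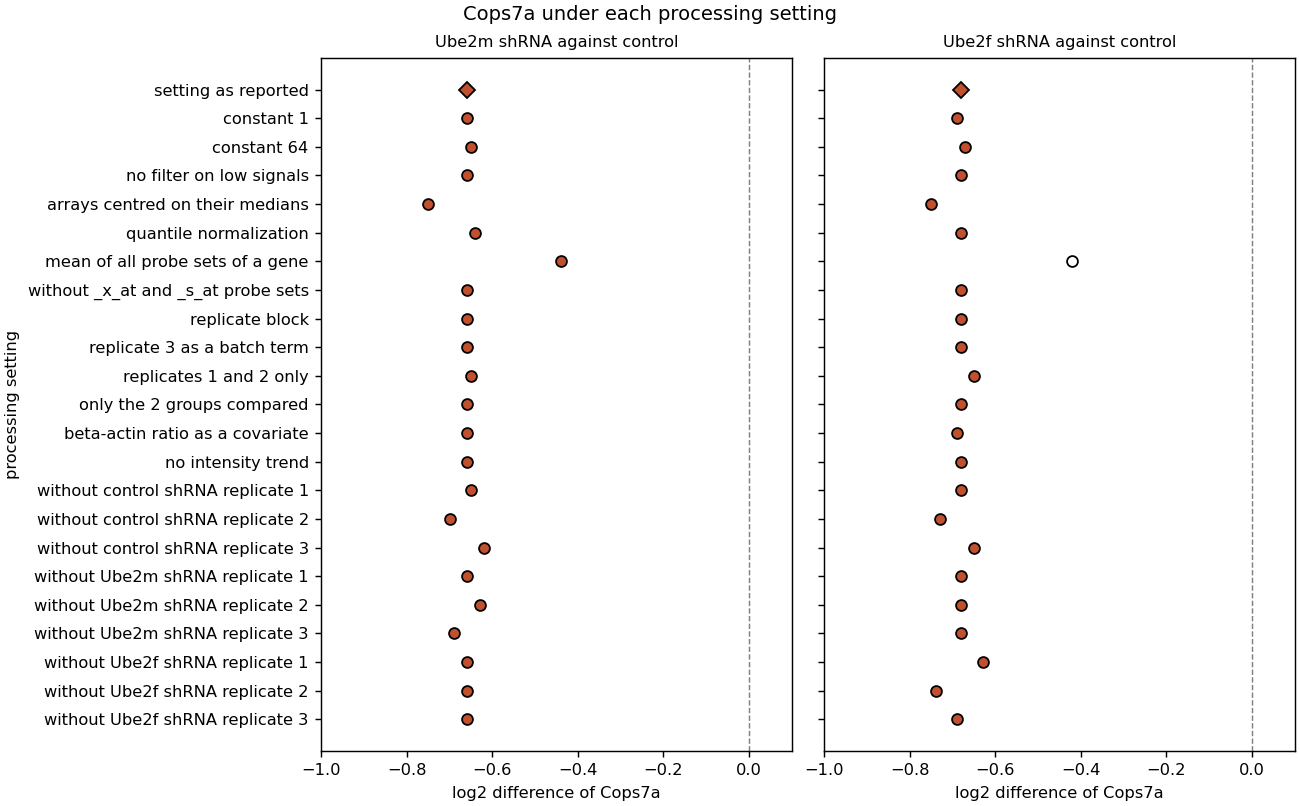
Log2 difference of Cops7a from control with the Ube2m hairpin (left) and the Ube2f hairpin (right) under the setting as reported (diamond) and 22 alternatives (circles); filled marks have an adjusted p under 0.05, and the dashed line is no difference. The one open circle is the mean of all probe sets of the gene in the Ube2f comparison, at -0.42.

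The second Cops7a probe set, of a type designed to match several transcripts of 1 gene, did not show the same fall. It read 1011.2, 1601.1 and 1510.4 in controls (1374 ± 318), 1210.1, 1173.4 and 1070.8 with the Ube2m hairpin (1151 ± 72.2), and 1184.8, 1299.1 and 1157.2 with the Ube2f hairpin (1214 ± 75.2). Control replicate 1, the array with the highest actin ratio, was the lowest of all 9 here, while the other 2 controls were the highest. The differences were -0.23 (-0.58 to 0.13, adjusted p = 0.46) and -0.15 (-0.50 to 0.20, adjusted p = 0.671). This probe set turned on which control was left out. Its differences with Ube2m and Ube2f were -0.43 (adjusted p = 0.0839) and -0.36 (adjusted p = 0.171) without control replicate 1, -0.10 (adjusted p = 0.788) and -0.03 (adjusted p = 0.954) without control replicate 2, and -0.14 (adjusted p = 0.671) and -0.07 (adjusted p = 0.87) without control replicate 3. Without control replicate 1 the main probe set gave -0.65 and -0.68.

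Cops7b, the paralog that can take the place of Cops7a, read 1029.9, 1113.0 and 957.9 on its main probe set in controls. With the Ube2m hairpin it read 1071.3, 1169.2 and 991.4, and with the Ube2f hairpin 863.2, 988.2 and 1010.7. The 3 groups overlapped, and the differences from control were 0.06 (-0.19 to 0.31, adjusted p = 0.818) and -0.11 (-0.37 to 0.14, adjusted p = 0.638). Its second probe set read 363.9, 551.9 and 492.2 in controls (469 ± 96.1), 628.0, 524.4 and 526.3 with the Ube2m hairpin (560 ± 59.3), and 356.8, 386.1 and 306.6 with the Ube2f hairpin (350 ± 40.2). The hairpin groups did not overlap there, with Ube2m above Ube2f by 0.65 (SE 0.17, 0.28 to 1.03, adjusted p = 0.0335), against 0.17 (-0.08 to 0.43, adjusted p = 0.369) on the main probe set. Leaving out any one of the 6 arrays of the hairpin groups ended this call, with an adjusted p between 0.0565 and 0.135. Against control it gave 0.26 (adjusted p = 0.426) and -0.39 (adjusted p = 0.252).

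**Figure D3:**
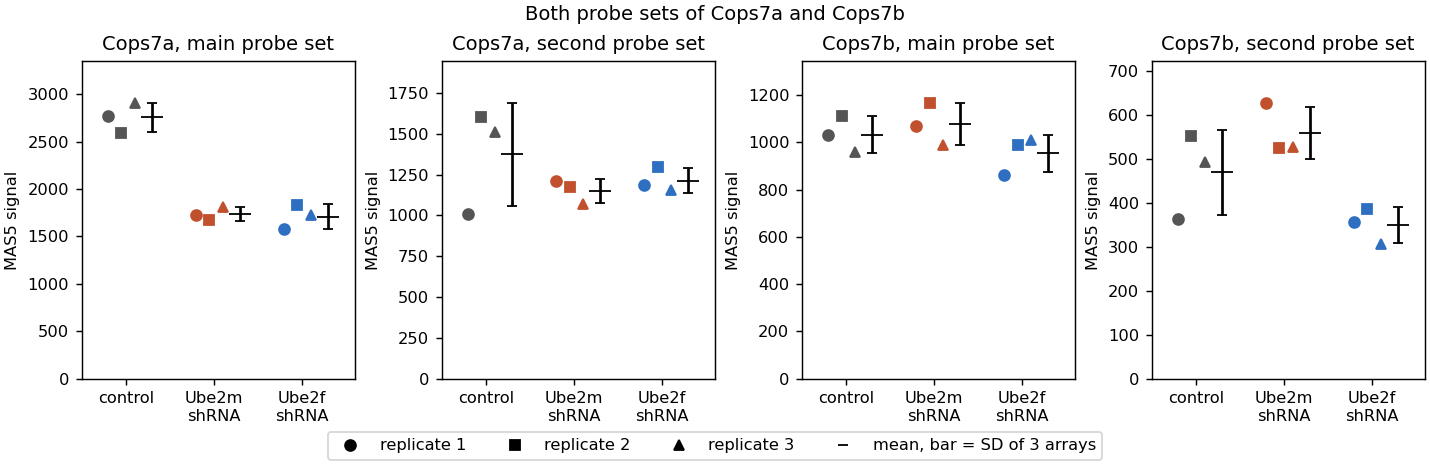
Linear MAS5 signal of the main and the second probe set of Cops7a and of Cops7b on the 9 arrays, with the mean and SD of 3 arrays beside each group; each vertical axis starts at 0 and has its own range. The main Cops7a panel shows both hairpin groups below the controls, the second Cops7a panel a control group spread from 1011.2 to 1601.1, and the second Cops7b panel the Ube2m arrays above the Ube2f arrays.

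The balance of the paralogs was also read on each array, as log2 of Cops7a minus log2 of Cops7b on the main probe sets, where only changes have meaning because the probes differ. It was 1.41, 1.21 and 1.58 in controls, 0.68, 0.51 and 0.86 with the Ube2m hairpin, and 0.86, 0.88 and 0.76 with the Ube2f hairpin. Every hairpin array thus lay below every control on the main probe sets. On the second probe sets the same measure was 1.44, 1.51 and 1.59 in controls, 0.93, 1.14 and 1.00 with the Ube2m hairpin, and 1.69, 1.71 and 1.86 with the Ube2f hairpin. There the Ube2m arrays again lay below the controls and the Ube2f arrays above them, so the direction with Ube2f depended on the probe sets. Against the mean of the 8 other subunits on the same array, Cops7a stood at -0.58 ± 0.13 (SD, n = 3) in controls, -1.27 ± 0.16 with the Ube2m hairpin and -1.29 ± 0.14 with the Ube2f hairpin. Both measures follow from the values above and add no test.

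Counted together, 1 of the 9 subunits fell and 0 rose with the Ube2m hairpin, 1 fell and 0 rose with the Ube2f hairpin, and 0 differed between the hairpins. Over all genes tested, 9.71% were called with Ube2m (3.59% higher, 6.12% lower), 5.19% with Ube2f (2.23% higher, 2.96% lower), and 15.8% between the hairpins (6.37% higher, 9.38% lower with Ube2m). The calls over all genes were 381 higher and 650 lower with Ube2m and 237 and 314 with Ube2f, and, with each array centred on its median, 124 and 401 and 50 and 172. The count of 1 called subunit in 9 is near these backgrounds. At an unadjusted p under 0.05 the limma counts were likewise 1, 1 and 0 subunits, where 24.8%, 20.2% and 28.7% of all genes tested had such a p. Groups that did not overlap were found for 3 subunits with Ube2m (Cops7a, Gps1 and Cops2), 2 with Ube2f (Cops7a and Cops3) and 0 between the hairpins, beside 29.7%, 23.2% and 34.4% of all genes tested. The median difference of the subunits was 0.02, -0.01 and 0.03 in the 3 comparisons, against -0.04, 0.01 and -0.04 over all genes.

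The other 8 subunits lay between -0.24 and 0.22 with Ube2m and between -0.11 and 0.15 with Ube2f, with smallest adjusted p-values of 0.203 and 0.414. The 95% intervals of these main probe sets reached from -0.49 to 0.50 and from -0.37 to 0.47. Those of second probe sets reached further, from -0.66 (Cops6) to 0.64 (Cops7b) with Ube2m and from -0.77 (Cops7b) to 0.68 (Cops6) with Ube2f. At the level of probe sets, 1 of the 4 second probe sets above the filter, that of Cops7b, passed in the comparison of the hairpins and 0 passed against control, where 5.37% of all probe sets tested were called with Ube2m, 3.39% with Ube2f and 10.8% between the hairpins. At an unadjusted p under 0.05, the second probe set of Cops7b passed with Ube2f against control and those of Cops6 and Cops7b between the hairpins. Of all probe sets tested, 21.1% had such a p with Ube2m, 18.4% with Ube2f and 24.1% between the hairpins.

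**Figure D4:**
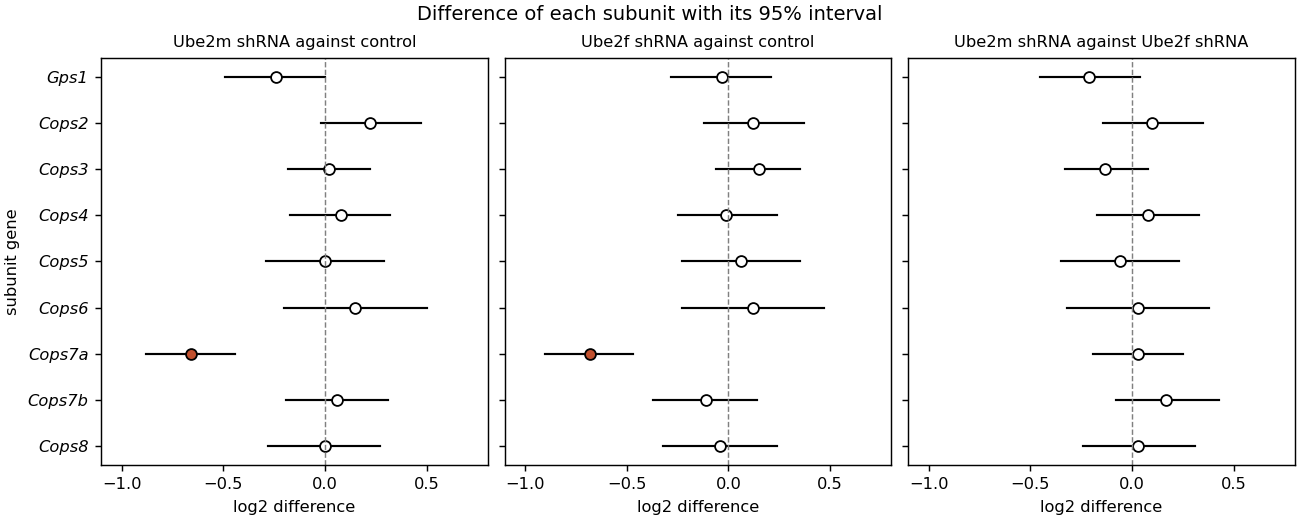
Log2 difference of the main probe set of each subunit in the 3 comparisons; points are estimates, bars are 95% intervals, filled points have an adjusted p under 0.05 over all genes tested. Only Cops7a is filled, in both comparisons with the control, and its intervals stay below those of Cops7b.

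**Figure D5:**
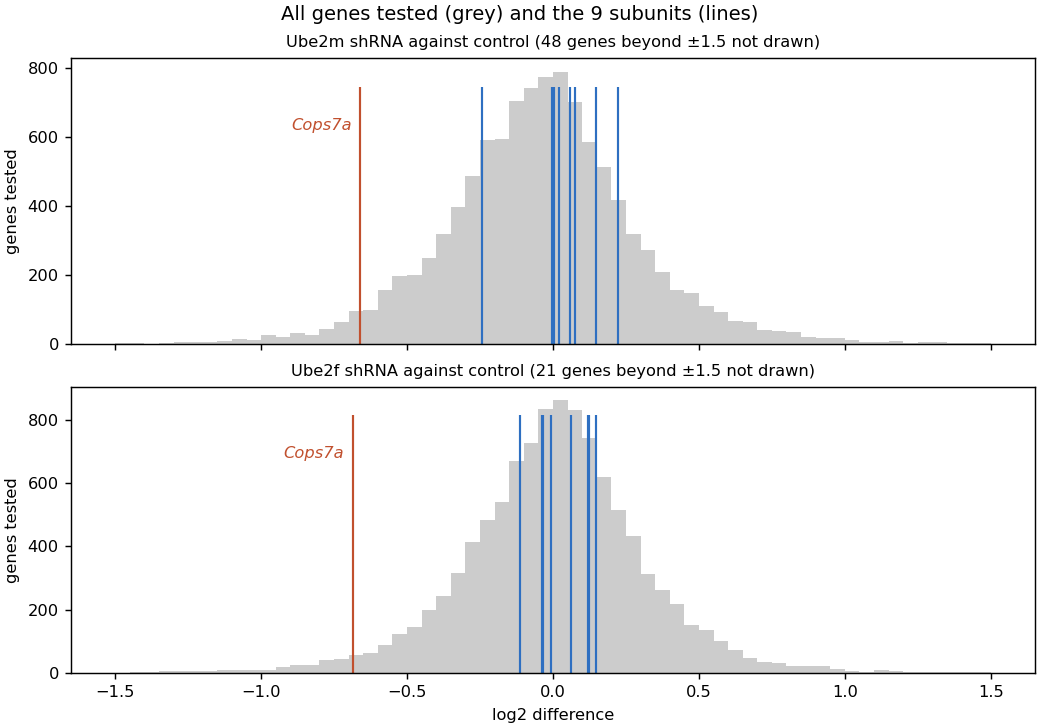
Distribution of the log2 difference from control over the 10613 genes tested (grey bars, number of genes per step), with the 9 subunits as vertical lines whose height carries no value. The 8 blue lines lie between -0.24 and 0.22 in the upper panel and between -0.11 and 0.15 in the lower one, and the line of Cops7a lies at -0.66 and -0.68.

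The spread of most subunits was ordinary for their brightness. The SD of log2 values within groups had a median of 0.13 over the 9 subunits, against 0.15 over the 4342 genes at least as bright as Cops7b and 0.19 over all genes tested. Cops3 had 0.07 and Cops7a 0.09, at percentiles 5.8 and 11 of those bright genes, and Cops6 had the widest spread, 0.24, at percentile 87.8. The other 6 lay at percentiles 27.5 (Cops7b) to 68.9 (Cops5). From the lowest to the highest of the 9 arrays, Cops7a ranged over 0.88 log2 units and the other 8 over 0.23 to 0.62.

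Subunits moved unevenly from array to array within a group. Gps1, Cops6 and Cops8 were lowest on replicate 3 in all 3 groups, and Cops4 and Cops5 in both hairpin groups, whereas Cops3 was highest on replicate 3 in the control and Ube2m groups. With replicate 3 as a batch term, or with replicates 1 and 2 only, Cops7a remained the only called subunit in both comparisons with the control. The correlation of deviations from the group means over the 9 arrays was 0.95 for Gps1 with Cops4, 0.91 for Gps1 with Cops8, and 0.91 for Cops4 with Cops6. It was -0.78 for Cops3 with Cops6, and over all 36 pairs the median was 0.10, with 21 above 0. These arrays share their scaling and replicate 3 its distribution, so the correlations describe the arrays only. The mean of the 9 subunits ran from 11.79 to 12.02 on the log2 scale. The genes whose signal followed it most closely over the 9 arrays were Ece2 (r = 0.953), Rnps1 (r = 0.946) and Mrpl43 (r = 0.944). They were picked as the highest correlations among all other genes tested, over only 9 arrays. They are thus a description, and shared regulation was not tested.

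Cops9, the small acidic subunit that completes the complex and is outside the 9 members, had main signals of 10466.5, 10075.2 and 8836.2 in controls, 12735.1, 12312.4 and 10543.2 with the Ube2m hairpin, and 11703.8, 14315.0 and 9785.1 with the Ube2f hairpin. The Ube2m arrays lay above the controls, but neither difference passed, at 0.28 (-0.02 to 0.57, adjusted p = 0.243) and 0.27 (-0.03 to 0.57, adjusted p = 0.296). A dim second probe set of Cops9 read 232.3, 298.6 and 205.5 in controls, 424.9, 452.4 and 507.6 with the Ube2m hairpin, and 258.3, 198.3 and 257.9 with the Ube2f hairpin. All Ube2m arrays were higher there than all others. That probe set rose by 0.88 with Ube2m (adjusted p = 0.0181) and gave -0.03 with Ube2f (adjusted p = 0.945), with 0.92 between the hairpins (adjusted p = 0.00807). Another, bright probe set gave 0.20, 0.18 and 0.01, so the probe sets of Cops9 disagreed. Over the mean of all its probe sets Cops9 rose by 0.45 with Ube2m (adjusted p = 0.0281).

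Among the enzymes that attach NEDD8, 10 of 11 measured genes were tested. Beside the counts of this and the further lists stand the shares of all genes tested. They were 6.12% lower and 3.59% higher with Ube2m, and 2.96% lower and 2.23% higher with Ube2f. With lists this short, their few calls are not read as a change of a list. With the Ube2m hairpin 2 fell and 0 rose: Dcun1d2, a co-E3 that helps the E2 onto the cullin, by 0.45 (767 ± 29.7 against 1052 ± 40.7, adjusted p = 0.0192), and Rnf7, the RING partner of Cul5, by 0.48 (2017 ± 313 against 2812 ± 275, adjusted p = 0.0363). With the Ube2f hairpin only the targeted gene fell, and between the hairpins only Ube2f differed. Nae1 rose with the Ube2f hairpin only after quantile normalization or with the replicate block. It gave 0.34 after the former (adjusted p = 0.0283) and 0.32 in the fit as reported (adjusted p = 0.0823). Centring the arrays on their medians ended both of these Ube2m calls, with adjusted p-values of 0.082 for Dcun1d2 and 0.142 for Rnf7, as did averaging all probe sets of each gene, with 0.224 and 0.0838. Of the other deneddylating enzymes, 3 of 4 were tested and 0 passed in any comparison. Senp8, the protease that matures NEDD8, read 239 ± 21.9 in controls and 323 ± 16.4 with the Ube2f hairpin, a difference of 0.41 (adjusted p = 0.114).

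Of the cullins and the exchange factors that bind unmodified cullins, 10 of 11 were tested, and 0 passed with Ube2m. Of all genes tested, 2.96% fell with Ube2f and 9.38% were lower with Ube2m than with Ube2f. With Ube2f, 1 fell, Cul7, by 0.55 (568 ± 63.7 against 840 ± 65.2, adjusted p = 0.0223, or 0.119 with the arrays centred). Between the hairpins 1 differed, Cul4a, lower with Ube2m at 1351 ± 200 against 1830 ± 240 (log2 difference -0.44, adjusted p = 0.0385). The Cul4a call ended with centred arrays (adjusted p = 0.0567) and after quantile normalization (0.0503). With the replicate number as a block, a pairing hinted at by the data and not given by the labels, Cul1 was also lower with Ube2m, making 2. These calls of Dcun1d2, Rnf7, Cul7 and Cul4a held in 5, 4, 5 and 3 of 9 left-out fits. All such counts of 9 include fits without an array of the group outside the comparison. There the difference itself cannot change, and only the estimate of its spread and the adjustment can.

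The relatives of Cops5 and Cops6, the other JAMM or MPN proteins, had 10 tested members. With Ube2m 0 passed, with Ube2f 1 rose, and between the hairpins 1 was lower with Ube2m. Of all genes tested, 2.23% rose with Ube2f, and between the hairpins 9.38% were lower and 6.37% higher with Ube2m. Stambp, a deubiquitinase of endosomes, rose by 0.55 with Ube2f (1054 ± 36.6 against 718 ± 82.3, adjusted p = 0.0209). That call ended with the arrays centred (0.227) and over the mean of all Stambp probe sets, at 0.67 (0.0617). Mpnd, an MPN protein, was at 1182 ± 47.4 with Ube2m and 2057 ± 220 with Ube2f, a difference of -0.79 (adjusted p = 0.00298) that held in 9 of 9 left-out fits. With the replicate block Stambpl1 was also called, higher with Ube2m. In the proteasome's regulatory particle, mostly lid subunits, 12 were tested and 0 passed against control. After quantile normalization, however, Psmd11 rose by 0.30 (adjusted p = 0.0204) and Psmd7 by 0.35 (adjusted p = 0.0435) with Ube2m. Psmd7 is also in the JAMM or MPN list. Psmd11, a PCI subunit of the lid, was higher with Ube2m than with Ube2f by 0.61 (16794 ± 1571 against 11012 ± 570, adjusted p = 0.00301), though not with the arrays centred (adjusted p = 0.116). Quantile normalization kept that call between the hairpins, at 0.56 (adjusted p = 0.000253). With the replicate block Psmd8 was called higher as well. In eIF3, 11 subunits were tested and 0 passed in any comparison. The smallest adjusted p of eIF3 was 0.174, for Eif3b with Ube2f at -0.30.

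Of 14 genes for partners and clients of the signalosome, 0 passed against control and 2 were lower with Ube2m than with Ube2f. Of all genes tested, 9.38% were lower in that comparison. Jun, an AP-1 transcription factor whose protein the complex is known to stabilise, was at 2567 ± 224 against 4049 ± 240 (log2 difference -0.66, adjusted p = 0.00593). That call held in 9 of 9 left-out fits but not over the mean of all Jun probe sets, at -0.58 (adjusted p = 0.0612). Cdkn1b, the cell cycle inhibitor p27, was at 657 ± 99.5 against 998 ± 124 (-0.59, adjusted p = 0.0456). It held in 4 of 9 left-out fits, and was lost with centred arrays (adjusted p = 0.0784), after quantile normalization (0.0536) and over the mean of all Cdkn1b probe sets, at -0.14 (0.796). The list medians, beside -0.04, 0.01 and -0.04 over all genes, were 0.04, -0.11 and -0.04 for the NEDD8 enzymes, 0.06, 0.17 and -0.13 for the deneddylases, and -0.10, -0.07 and -0.01 for the cullins. They were 0.18, 0.09 and 0.14 for the JAMM or MPN proteins, 0.12, -0.03 and 0.11 for the regulatory particle, 0.01, -0.03 and 0.01 for eIF3, and -0.06, -0.05 and -0.02 for the partners.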

How the data were processed

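RNA of 9 NIH 3T3 cultures was measured on 1-colour Affymetrix arrays, from 6 ug of total RNA labelled with biotin, per the labels. The deposited values are intensity, a linear signal per probe set made with MAS5, per the submitters' processing notes; its version and settings are not given in these sources. The mean signal after removing 2% of probe sets at each end was 500 on every array. The 64 control probe sets, 932 with several genes and 9160 without a gene name were left out. Genes were tested if their mean log2(signal + 16) reached the median of all probe sets (6.12, a signal of 53.8). Of 18193 genes, 10613 were tested by a linear model with 1 mean per group over all 9 arrays (R 4.3.3; limma 3.58.1 with trended eBayes, whose prior had 6.55 degrees of freedom). P-values are two-sided with Benjamini-Hochberg adjustment across every gene tested, threshold 0.05. Probe sets were fitted likewise over the 19684 above the filter. With 3 arrays a group, exact permutation p-values go no lower than 0.1, so none was used. The fit was tested on simulated data. Summaries and figures used Python 3.11.15, pandas 2.3.3 and matplotlib 3.10.9.

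The text names the 9 subunits with all probe sets, the targeted genes, at most 3 members of smallest p of each further list, and the 3 genes closest to the subunits' mean. The members and lists were chosen with earlier results of these data known. All 9 subunits were found in RefSeq by gene ID, and promoter sequences are from RefSeq, GRCm38.p6. Alternatives changed the constant, filter, scaling, choice of probe sets, replicate terms and arrays used, 1 at a time. Deviations from group means of same-numbered arrays correlated at -0.005, 0.185 and 0.317 between the control and Ube2m groups, 0.015, 0.157 and 0.349 between control and Ube2f, and 0.201, 0.211 and 0.557 between the hairpin groups, for replicates 1, 2 and 3. The numbers were taken as pairs only where all 3 exceeded 0.1, between the hairpins, as a hint from the data and not the labels. Ube2m replicate 1 correlated more with Ube2f replicate 2, at 0.276, than with Ube2f replicate 1. The numbers are thus not shown to be pairs. Blocked counts stand beside the results between the hairpins where they changed, and genes that the block added against control are named at the end.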

Additional observations from a re-analysis of the deposited data

Results flagged for a closer look

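A pair of probe sets differed between the hairpins by the test of that difference, while the main probe set of the same gene did not pass. The second Cops7b probe set was 0.65 higher on the log2 scale with the Ube2m hairpin than with the Ube2f hairpin (560 ± 59.3 against 350 ± 40.2, n = 3 each, adjusted p = 0.0335), where the main one gave 0.17 (adjusted p = 0.369). Leaving out any single array of the hairpin groups ended this Cops7b call, with an adjusted p between 0.0565 and 0.135. The dim second probe set of Cops9 was 0.92 higher with Ube2m than with Ube2f (462 ± 42.1 against 238 ± 34.5, adjusted p = 0.00807), where the main one gave 0.00 (adjusted p = 0.992). Another, bright probe set of Cops9 gave 0.01 (adjusted p = 0.969).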

How the results depend on the processing

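Of 594 single-gene values of the subunits under alternatives, 544 kept their direction and side of the threshold, 46 uncalled ones changed sign (among them Cops6 with Ube2m, from 0.15 to -0.06 over the mean of all probe sets), 3 passed newly and 1 was lost. The number of subunits called was 2 with Ube2m after quantile normalization (Gps1 added) and 0 with Ube2f for the mean of all probe sets; between the hairpins it was 1 under either of these, Gps1 under the first and Cops7b under the second (0.41, adjusted p = 0.0472). Of the second probe sets between the hairpins, 0 passed without the filter, with centred arrays, or with replicates 1 and 2 only, 2 without the intensity trend, and 0 to 1 with an array left out. All genes called with Ube2m (1031) became 525 with centred arrays, 607 with averaged probe sets, 2118 with replicate 3 as a batch term, 1747 with replicates 1 and 2 only, 448 with beta-actin ratio as covariate, and 388 to 1177 with an array left out. With Ube2f (551) they became 222, 271, 1461, 1121 and 249 under these, 350 with only the groups compared, and 195 to 583 with an array left out. Between the hairpins (1672) they became 868, 1109 and 2714 under the first 3, and 1017 to 1813 with an array left out. The low counts with Ube2m came without control replicate 1 (472) and Ube2m replicates 1 (443) and 2 (388), those with Ube2f without control replicate 1 (281) and Ube2f replicates 1 (195) and 2 (342), and those between the hairpins without Ube2m replicates 1 (1063) and 2 (1017) and Ube2f replicate 1 (1018). With the replicate number as a block, 1866, 1225 and 2493 genes were called, Cops7a stayed called against control, no other subunit was called, and the second Cops7b probe set stayed called between the hairpins (adjusted p = 0.0202). Between the hairpins the block added Cul1, Stambpl1 and Psmd8 to the pathway lists and lost none. Against control it also lost none. With Ube2m it added Cul1, which was lower, and Psmd7, Psmd11 and Stambp, which were higher. With Ube2f it added Dcun1d2, which was lower, and Nae1, Mpnd, Ddb2 and Jun, which were higher. The lack of calls against control in some lists thus depended on leaving out the block. Not every array correlated best with its own number. The cause of these shifts was not tested.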
